A study of Mus musculus with 24 samples.

Results

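The genes described here are the myelin and oligodendrocyte lineage genes of the mouse prefrontal cortex (PFC). The 38 members were taken by symbol from a list of genes known from oligodendrocytes, and 35 of them were among the 14074 genes measured. Of these 35, 29 of 32 listed belong to mature, myelin-forming cells and 6 of 6 to precursors or the lineage as a whole (Pdgfra, Cspg4, Lhfpl3, Gpr17, Olig1 and Olig2). Anln, Enpp6 and St18 were not analysed here. Bulk RNA-seq was made from the PFC of 24 adult male C57BL/6 mice, with 1 library per mouse and 6 groups of 4 mice. Stressed mice went through 30 days of social defeat by aggressive CD1 males and were sorted by clustering of their behaviour in non-aggressive contact into a passive coping (PS) and an active coping (AS) phenotype. Control mice were not defeated. Mice of each phenotype received either saline or 2 mg/kg of dexamethasone (DEX), a synthetic agonist of the glucocorticoid receptor, and tissue was taken 6 h later. All 6 groups share strain and sex, every control library comes from an injected animal, and no group of uninjected mice was analysed. The dissected block spans several frontal areas, so a library can hold different amounts of deep layers, white matter and neighbouring tissue.

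Oligodendrocytes wrap axons of the central nervous system in myelin, a compacted membrane rich in galactolipids, cholesterol and a small set of abundant proteins. They arise throughout adult life from dividing precursors that carry the PDGF receptor Pdgfra and the proteoglycan NG2, encoded by Cspg4. On commitment, precursors pass through a Gpr17-positive stage and then switch on the transcription factor Myrf, which together with Sox10 drives the myelin genes. Oligodendrocytes express the glucocorticoid receptor, and in the PFC myelin has been studied as a structure that responds to social experience.

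The deposited values are gene counts divided by 1 size factor per library, called normalized counts below, and they resolved into whole reads for 100% of values. Libraries held from 21121869 to 59439645 reads on genes. The deepest groups were AS with saline, with a median of 34242532 reads, and AS with DEX, with a median of 37876626 reads. Fkbp5, a chaperone gene induced by the glucocorticoid receptor, stood between 761 and 1088 normalized counts in the 12 saline libraries and between 2931 and 4198 in the 12 DEX libraries, and Tsc22d3, a transcriptional regulator gene induced in the same way, between 1085 and 1585 against 2360 and 2970, so neither gene conflicted with the treatment label of any library. In bulk tissue, fewer oligodendrocytes and less RNA per oligodendrocyte cannot be told apart.

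Per kilobase of exon, the level of the members spanned from 22 normalized counts for Trf, which encodes the iron carrier transferrin, to 1621 for Mbp, whose product glues the cytoplasmic faces of the myelin membrane together. After Mbp came Enpp2 with 1178 per kilobase, which encodes the lysophosphatidic acid-producing enzyme autotaxin, and Car2 with 1128, a carbonic anhydrase. The lineage factor Olig1 followed with 805 and Cnp, a phosphodiesterase of non-compact myelin, with 716. At the low end, Aspa had 25.0 per kilobase, the transcription factor gene Nkx6-2 45.6 and Opalin 51.4. Every member had at least 41 reads in every library. The defining markers of mature cells (Mbp, Mog, Mag) and of precursors (Pdgfra, Cspg4) were thus present in all libraries of this cortical tissue. Some members share exonic bases with another annotated gene. For Trf, 63.5% of the exonic bases lie in another gene on the same strand, and for Pllp 54.2% lie in a gene on the opposite strand. For Evi2a the share is 19.2%, on the same strand. Since the strand setting of the counting is not given in the sources used here, values of these members are uncertain to that extent.

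The mature members varied together from library to library, and this shared level was not the same in the libraries of a group. It was summarised as a mature score, the mean over the 29 mature members of log2(normalized count + 1) after centring each gene on the 24 libraries. In controls with saline the score was 0.01, 0.08, 0.08 and 0.49, the highest value of all libraries being that of mouse 117. In controls with DEX it was -0.29, -0.20, -0.18 and 0.06. Scores of PS mice ran from -0.20 to 0.14 with saline and from -0.12 to 0.12 with DEX. In AS mice with saline the score ranged most widely downwards, from -0.35 in mouse 8 to 0.18 in mouse 44. In AS mice with DEX it ran from -0.08 to 0.36, the latter in mouse 60. The ranges with saline and with DEX overlapped in all 3 phenotypes.

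**Figure D1:**
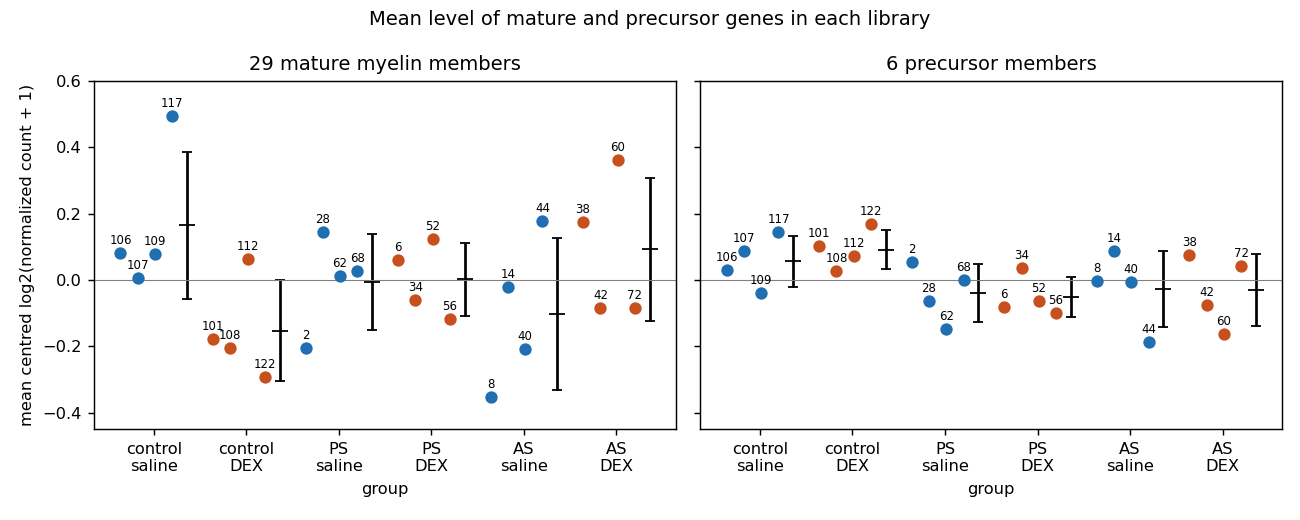
Mean centred log2(normalized count + 1) of the 29 mature members (left) and the 6 precursor members (right) in each of the 24 libraries, by group; blue points are saline and orange points DEX libraries, numbers are mouse numbers, and bars give the mean ± SD of 4 mice. The saline-treated control mouse 117 stands at 0.49, whereas the other 3 of its group stand between 0.01 and 0.08.

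About the group means, 23 of the 29 mature members correlated with the mean of the others at a Pearson's r of at least 0.7 over the 24 libraries, and the median r was 0.83. Mbp, Mog and Mobp followed the common level most closely, with r of 0.96, 0.96 and 0.95. The other six mature members followed it less: Sirt2 (0.40), Sox10 (0.37), Car2 (0.29), Lpar1 (0.20), Ndrg1 (0.06) and Enpp2 (-0.47). Of the precursor members, Pdgfra (-0.69), Gpr17 (-0.57) and Cspg4 (-0.54) were lower where mature genes were higher, whereas Olig1 had r of 0.49. Within a library all genes share a dissection, an RNA preparation and a size factor, and these correlations carry no test.

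Markers of tissue next to the dissected area differed between the same libraries. Markers of the olfactory bulb (Th, Eomes, Cdhr1, Doc2g and Lbhd2; 5 of 6 listed were measured) summed to 4785 normalized counts in control mouse 117, against 107 to 243 in the other saline controls. They summed to 3782 in the DEX-treated PS mouse 34, to 1716 in the saline-treated AS mouse 14 and to 1677 in the saline-treated PS mouse 2, and to between 107 and 965 in the remaining 20 libraries. The summed markers of upper cortical layers (8 of 8 measured) were 28321 in mouse 117, the lowest of all libraries. They were 39385 and 39799 in the saline-treated AS mice 8 and 40, whose mature scores of -0.35 and -0.21 were the lowest of their group. Summed markers of layer 6 (7 of 10 measured) were 7175 in mouse 117 and 4929 and 4931 in mice 8 and 40. Their part in the results below was not tested, but the counts of members called for DEX are also given without all 4 libraries above 1000 counts of olfactory bulb markers.

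**Figure D2:**
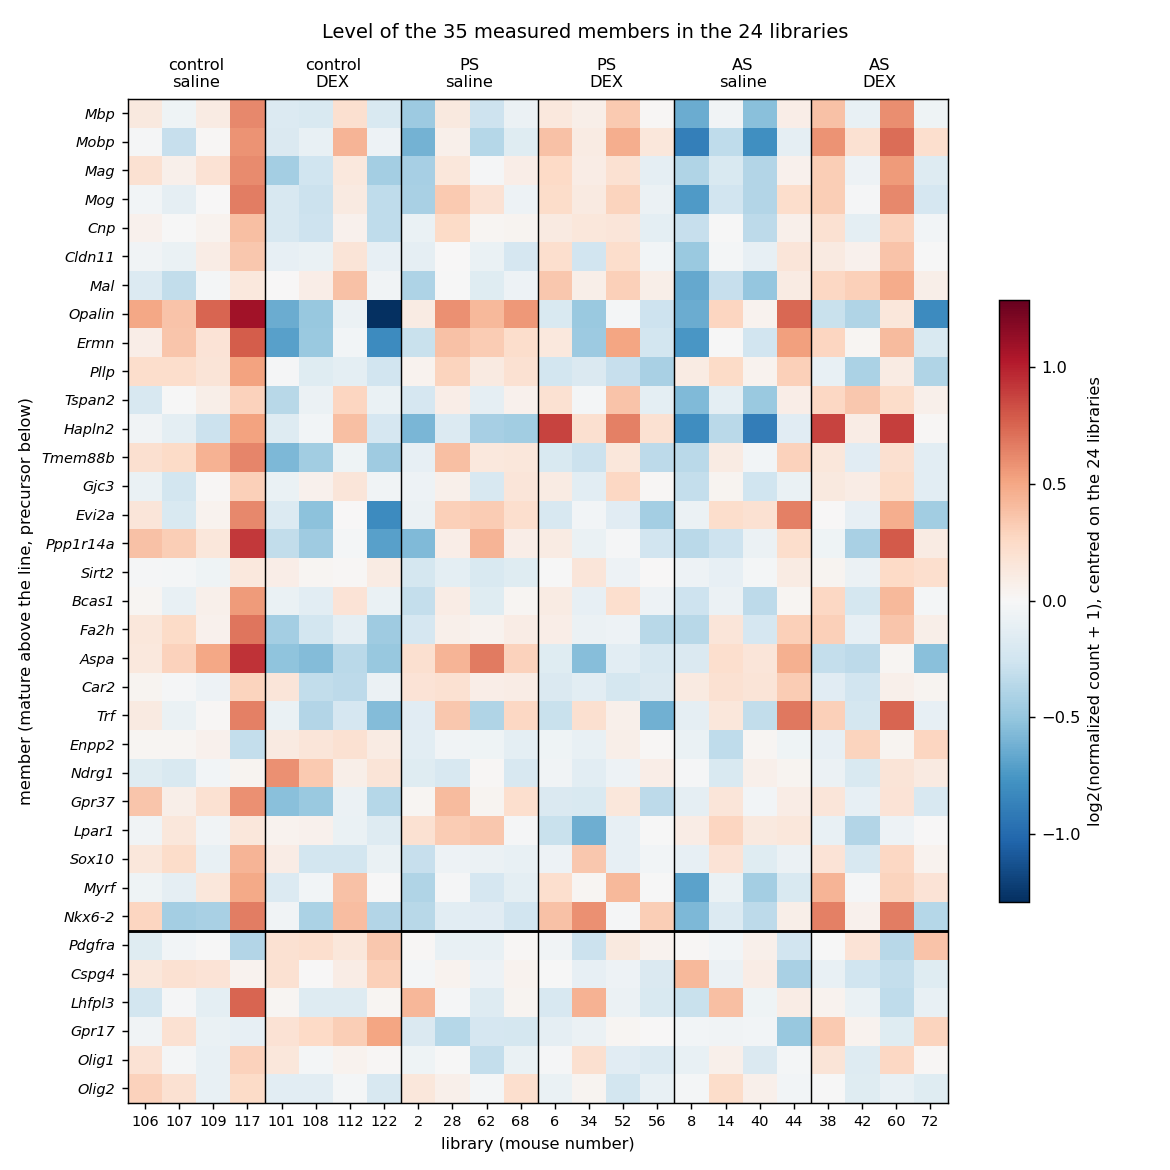
Level of the 35 measured members (rows; mature above the heavy line, precursor below) in the 24 libraries (columns, mouse numbers, by group), as log2(normalized count + 1) centred on the 24 libraries. Most mature rows are red in control mouse 117 and AS mouse 60 and blue in AS mouse 8, while Opalin and Aspa are red or pale in most saline and blue in most DEX libraries.

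To address whether chronic stress alone altered these genes, saline-treated PS and AS mice were compared with saline-treated controls. No member passed an adjusted p of 0.1 in limma's test over all 14074 genes, in PS (0 of 35), in AS (0 of 35) or between AS and PS (0 of 35). Across all genes, 1.51% were called in PS against control, 0.156% in AS against control and 0% between AS and PS. edgeR and DESeq2 also called 0 members in each of these comparisons, as did limma without each single library and without the 4 libraries rich in olfactory bulb markers. At an unadjusted p under 0.05 (limma) there were 4 members in PS, 13 in AS and 1 between AS and PS. Of all 14074 genes, 1850, 1548 and 671 reached that p. Estimates for the mature members lay below 0 for 26 of 29 in PS, with a median log2 fold change of -0.18, and for 25 of 29 in AS, with a median of -0.28. Leaving out the 4 libraries rich in olfactory bulb markers moved these medians to -0.01 and -0.21. Both comparisons share the same saline-treated controls, and the mature members vary together, so the counts of estimates below 0 are not independent.

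Mobp, which encodes a small basic protein of compact myelin, had the largest estimate in AS. It stood at 3166, 3860.5, 3950.0 and 5809 normalized counts in saline-treated controls and at 2109, 2257, 3112 and 3593 in saline-treated AS mice. The groups overlapped, and the difference was -0.60 ± 0.19, adjusted p = 0.25 (log2 fold change ± SE, limma). Mbp gave 12954, 14413, 14615 and 20599.9 in controls, 9688, 11169, 12758 and 14689.5 in PS and 8586, 9209, 12968 and 14260.1 in AS mice with saline. Its ranges overlapped in both comparisons (-0.37 ± 0.17, adjusted p = 0.37 in PS and -0.49 ± 0.17, adjusted p = 0.31 in AS, limma). Mag, the adhesion molecule facing the axon, was the 1 member of 35 whose saline groups did not overlap between AS and control (3.06% of all genes were apart downwards), but its difference of -0.49 ± 0.16, adjusted p = 0.28 did not pass the threshold in limma. Between PS and control 3 of 35 were apart downwards, Gpr17, Sirt2 and Cspg4 (6.12% of all genes), and between AS and PS 1 upwards, Sirt2 (2.86%), also without passing. The standard errors of the mature members, 0.07 to 0.25 on the log2 scale, leave differences of the size of these medians undetectable for the noisier genes.

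DEX changed 13 of the 35 members in control mice, 5 in PS mice and 7 in AS mice (limma, adjusted p under 0.1). Across all genes the shares called were 6.49%, 5.36% and 8.77%. In controls, 10 members fell and 3 rose, where 2.46% of all genes fell and 4.03% rose. In PS mice 4 fell and 1 rose (2.62% and 2.74% of all genes), and in AS mice 2 fell and 5 rose (4.95% and 3.82%). DEX and saline groups were apart, with no overlap, for 8 members downwards and 3 upwards in controls (4.32% and 5.81% of all genes), for 4 and 7 in PS mice (4.57% and 5.54%) and for 2 and 3 in AS mice (5.02% and 4%). The calls thus went in both directions within each phenotype, and the differences between phenotypes were tested as interactions, given further down. The mature members had a median log2 fold change of -0.29 in control mice, of 0.08 in PS mice and of 0.23 in AS mice, against -0.02, -0.04 and -0.03 for the precursor members. In each comparison the median over all genes moved by less than 0.1.

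Averaged over the 3 phenotypes with equal weight, 17 members responded to DEX, 8 upwards and 9 downwards, with 15.5% of all genes called (7.46% and 8.01%). Those that fell were Opalin, Aspa, Pllp, Evi2a, Tmem88b, Gpr37, Lpar1, Car2 and Olig2. Those that rose were Hapln2, Mobp, Mal, Myrf, Gpr17, Enpp2, Ndrg1 and Sirt2. Between 17 and 19 members were called when each library was left out in turn, and 16 without the 4 libraries rich in olfactory bulb markers. The shares of all genes called for the mean in these settings are not given here. The proteins of the sheath are described first, then enzymes and carriers, receptors, transcription factors and precursor genes.

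**Figure D3:**
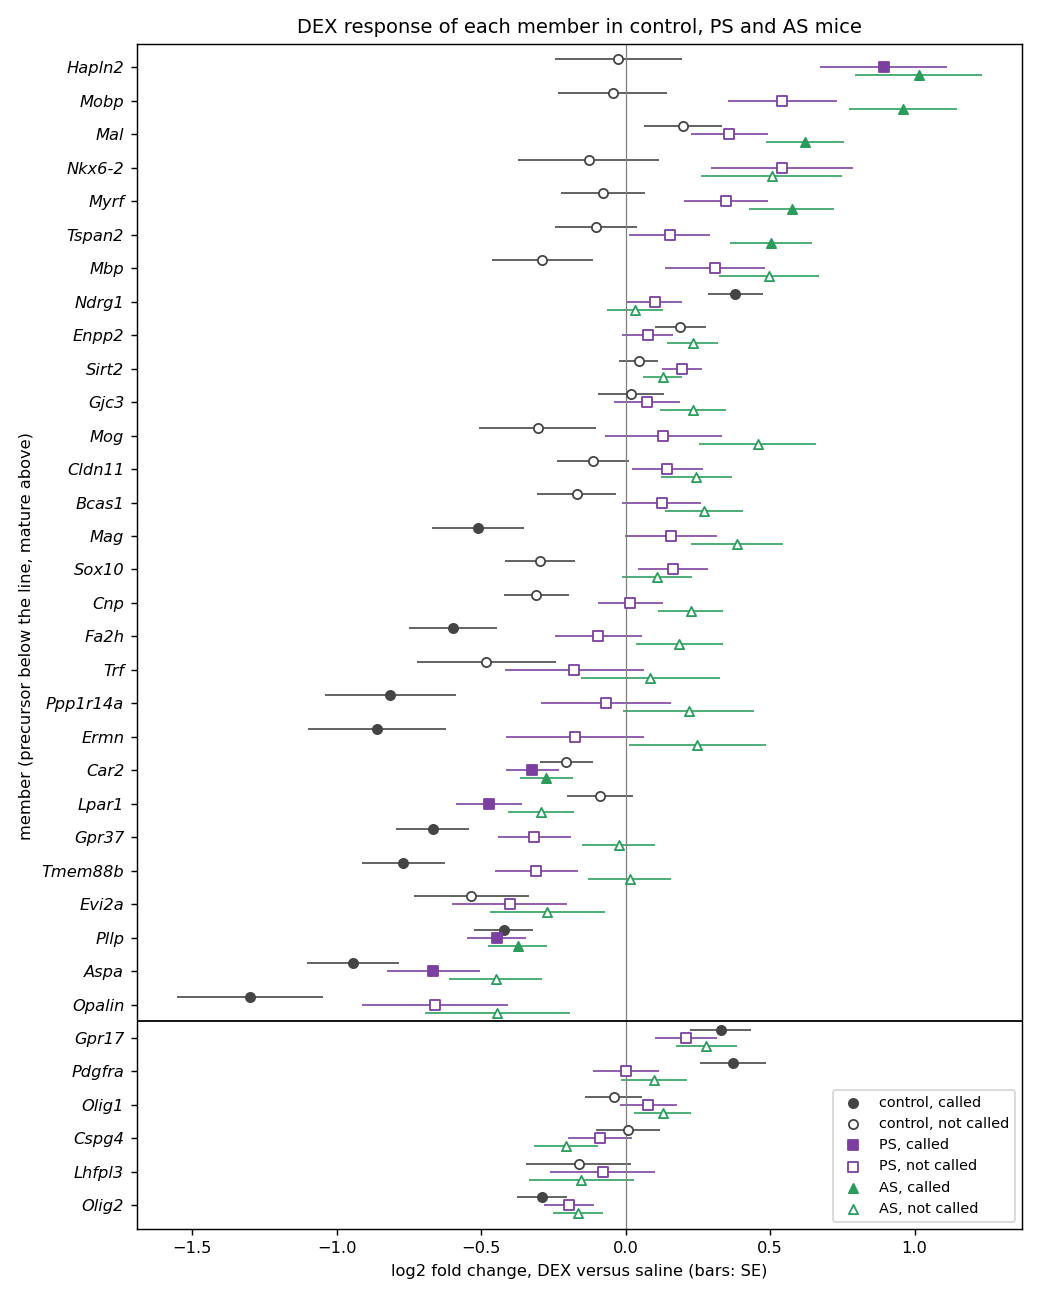
Log2 fold change of DEX against saline (x axis, limma; bars are SE) for each of the 35 measured members (y axis, ordered by the mean response; mature above the line, precursor below) in control, PS and AS mice, 4 against 4 mice each. Filled symbols passed an adjusted p of 0.1; Opalin, Aspa and Pllp lie left of 0 in all 3 phenotypes, whereas Hapln2 and Mobp lie right of 0 in PS and AS mice and close to 0 in controls.

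Among the 18 measured sheath genes, Opalin, which encodes a glycoprotein of the oligodendrocyte surface, showed the largest fall in controls and on average. Its normalized counts in control mice were 182, 199.8, 238 and 299 with saline and 56.9, 90.1, 100 and 133 with DEX. In PS mice they were 152, 188, 207 and 212 with saline and 101, 116, 122 and 138 with DEX. In AS mice they were 89.7, 146, 171 and 236 with saline and 79.5, 107, 115 and 155 with DEX. Control and PS groups did not overlap, whereas in AS mice the saline values of 89.7 (mouse 8) and 146 (mouse 40) lay within the DEX range. The log2 fold change was -1.30 ± 0.25, adjusted p = 0.0021 in controls, -0.66 ± 0.25, adjusted p = 0.19 in PS and -0.44 ± 0.25, adjusted p = 0.38 in AS mice (limma). In controls DEX brought Opalin to 0.406 of its saline level, and the mean response was -0.80 ± 0.15, adjusted p = 0.00036.

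Pllp encodes plasmolipin, a myelin proteolipid. Control mice had 573, 596, 598 and 731 with saline and 429, 459, 466 and 505 with DEX. Counts of PS mice were 525, 551, 586 and 623 with saline and 381, 414, 434 and 447 with DEX. AS mice had 528, 548, 604 and 633 with saline and 385, 389, 477 and 547 with DEX. Pllp was the only one of the 35 members called in each of the 3 phenotypes. The estimates were -0.42 ± 0.10, adjusted p = 0.016 in control, -0.45 ± 0.10, adjusted p = 0.011 in PS and -0.37 ± 0.10, adjusted p = 0.03 in AS mice (limma), without overlap in controls and PS mice and with overlap in AS mice, where 547 in mouse 60 reached into the saline range. The AS call ended without DEX mouse 42 or 72.

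Tmem88b encodes a transmembrane protein of oligodendrocytes. Values were 481, 493, 568 and 642 with saline and 278, 302, 305 and 398 with DEX in controls. PS mice gave 385, 457, 460.4 and 545 with saline and 328, 342, 363 and 460.1 with DEX. In AS mice, 325, 404, 447 and 511 with saline and 376, 377, 459.7 and 479 with DEX were counted. The control groups did not overlap (-0.77 ± 0.14, adjusted p = 0.0015), while PS (-0.31 ± 0.14, adjusted p = 0.34) and AS mice (0.01 ± 0.14, adjusted p = 0.98) did not pass the threshold in limma, and the difference between the AS and control responses had an adjusted p of 0.11. Ermn, an actin-binding cytoskeletal protein of late oligodendrocytes (-0.86), the myosin phosphatase inhibitor Ppp1r14a (-0.81) and Mag (-0.51) also fell in controls. Each of these calls ended when saline mouse 117 or DEX mouse 122 was left out, that of Ermn also without DEX mouse 101, and that of Mag without mice 101, 106 or 108.

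Mal, a proteolipid that sorts lipid rafts into myelin, moved the other way. Its counts were 1151, 1276, 1413 and 1586 with saline and 1389, 1439, 1525 and 1865 with DEX in controls. PS mice had 1091, 1294, 1373 and 1429 with saline and 1515, 1517, 1779 and 1836 with DEX. AS mice showed 913, 1018, 1171 and 1547 with saline and 1521, 1726, 1786 and 2011 with DEX. The rise passed the threshold in AS mice (0.62 ± 0.13, adjusted p = 0.0057) and in the mean of the phenotypes (0.39 ± 0.08, adjusted p = 0.00092), but not in controls (0.20 ± 0.13, adjusted p = 0.55) or PS mice (0.36 ± 0.13, adjusted p = 0.18) in limma. In PS mice the groups nevertheless did not overlap.

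Mobp stood at 3166, 3860.5, 3950.0 and 5809 with saline and 3437, 3656, 3720.0 and 5294 with DEX in controls. In PS mice it stood at 2556, 3029, 3495 and 4070.1 with saline and 4205, 4316, 5063 and 5396 with DEX, and in AS mice at 2109, 2257, 3112 and 3593 with saline and 4469.5, 4539, 5823 and 6445 with DEX. Groups overlapped in controls but not in PS or AS mice, although the PS gap, between 4070 and 4205, was narrow. DEX raised Mobp 1.94-fold in AS mice (0.96 ± 0.19, adjusted p = 0.0023), while the estimates in PS (0.54 ± 0.19, adjusted p = 0.13) and control mice (-0.05 ± 0.19, adjusted p = 0.95) did not pass in limma.

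Hapln2 encodes a link protein that anchors hyaluronan-rich matrix at nodes of Ranvier. Its normalized counts in controls were 159.5, 178, 188 and 279 with saline and 167, 172, 189 and 255 with DEX. In PS mice they were 129, 142, 145 and 171 with saline and 223, 224, 306 and 356 with DEX. AS mice gave 104, 111, 153 and 175 with saline and 196, 208, 355 and 361 with DEX. Every DEX value of PS and AS mice was above every saline value of the same phenotype, whereas the control groups covered the same range. The rise was 1.86-fold in PS (0.89 ± 0.22, adjusted p = 0.018) and 2.02-fold in AS mice (1.01 ± 0.22, adjusted p = 0.0056), and the control estimate was -0.03 ± 0.22, adjusted p = 0.98 (limma). The saline level of Hapln2 in controls included 279 counts in mouse 117.

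**Figure D4:**
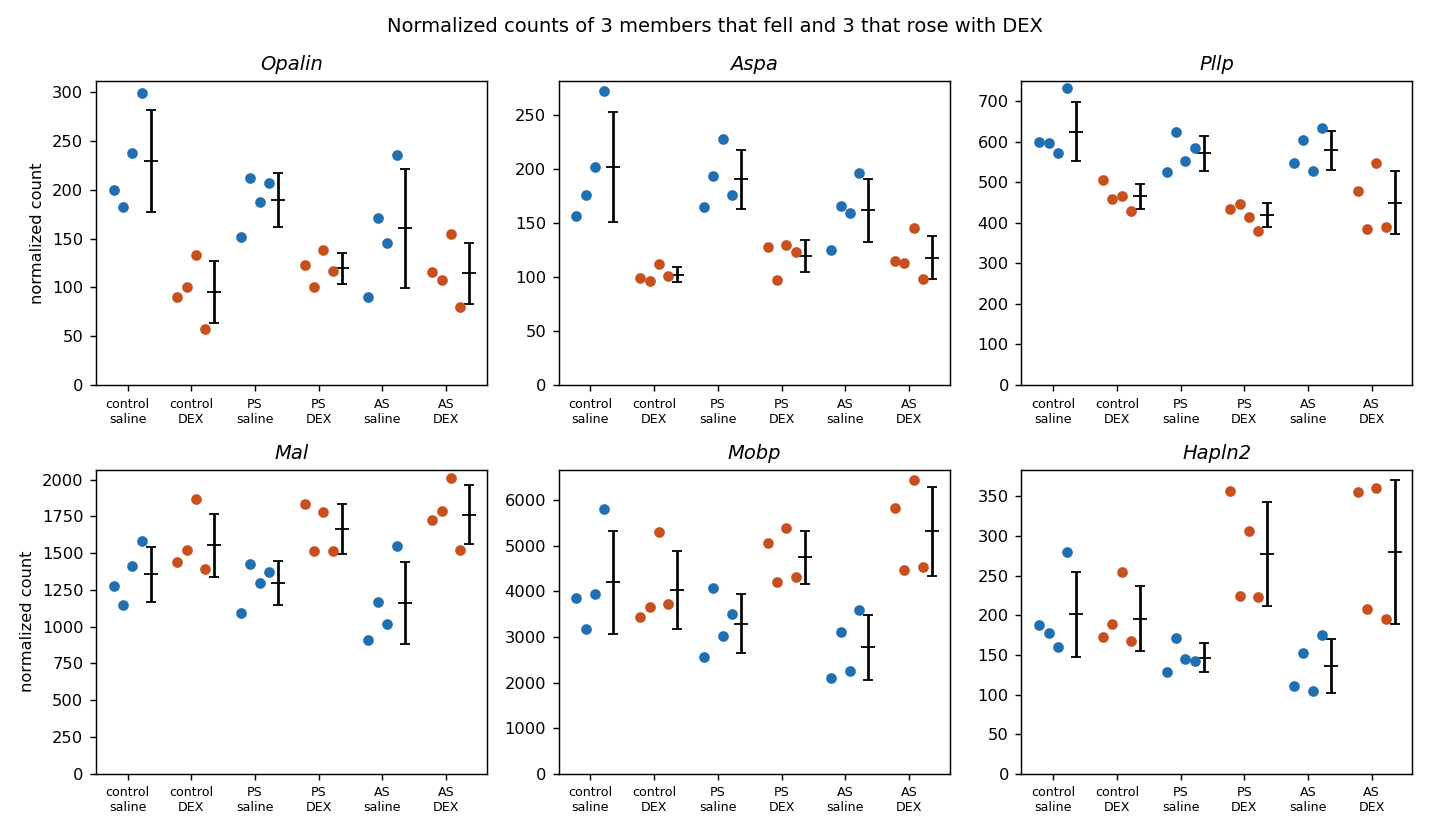
Normalized counts (y axis, from 0) of Opalin, Aspa, Pllp, Mal, Mobp and Hapln2 in each library by group; blue points are saline and orange points DEX libraries, and bars give the mean ± SD of 4 mice. Opalin, Aspa and Pllp have the lowest adjusted p among members that fell in the mean of the phenotypes and Mal, Hapln2 and Mobp among those that rose; for Hapln2 the DEX points of PS and AS mice all lie above the saline points, while those of controls do not.

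Mbp, Mog and Cnp, long-used markers of the sheath, did not pass the threshold for DEX in any phenotype with all libraries. Mbp was at 12954, 14413, 14615 and 20599.9 with saline and 11707, 11730.5, 11884 and 15476 with DEX in controls. In PS mice it was at 9688, 11169, 12758 and 14689.5 with saline and 13523, 14123, 14751 and 16955 with DEX, and in AS mice at 8586, 9209, 12968 and 14260.1 with saline and 12573, 12955, 17478 and 20319 with DEX. All 3 pairs of groups overlapped, with estimates of -0.29 ± 0.17, adjusted p = 0.48 in control, 0.31 ± 0.17, adjusted p = 0.48 in PS and 0.50 ± 0.17, adjusted p = 0.102 in AS mice (limma). Mog, a surface protein of the outermost lamella, had 312, 331, 338 and 535 with saline and 269.5, 278, 293 and 366 with DEX in controls. Its PS counts were 252, 324, 385 and 428 with saline and 321, 365, 399 and 413 with DEX, and its AS counts 203, 261, 285 and 396 with saline and 291, 335, 420.4 and 520.1 with DEX. These groups overlapped too, and adjusted p-values were 0.53, 0.88 and 0.22 in limma. Cnp gave 2578, 2662, 2679 and 3385 with saline and 2052, 2143, 2242 and 2677 with DEX in controls. It gave 2434, 2622, 2653 and 3062 with saline and 2370.0, 2792, 2852 and 2875 with DEX in PS and 2041, 2102, 2578 and 2707 with saline and 2371, 2517, 2959 and 3166 with DEX in AS mice, again with overlap in each phenotype and adjusted p-values of 0.14, 0.98 and 0.29 in limma. Of the other sheath genes, Tspan2, a tetraspanin of early myelinating cells, rose in AS mice (0.50 ± 0.14, adjusted p = 0.034, limma), a call that ended without mouse 8, 40 or 42. Evi2a (-0.40) and the deacetylase Sirt2 (0.12) were called in the mean of the phenotypes only, and Cldn11, Gjc3 and Bcas1 in no comparison.

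Of 6 measured metabolic genes, Aspa fell most. Aspa encodes aspartoacylase, which cleaves N-acetylaspartate and so supplies acetate for lipid synthesis. Control mice had 157, 176, 201 and 272 with saline and 96.4, 99.2, 101 and 112 with DEX. PS mice had 164, 176, 193 and 228 with saline and 97.4, 123, 127 and 129.9 with DEX, and AS mice 125, 159, 165 and 196 with saline and 97.9, 113, 115 and 145 with DEX. The 4 DEX-treated controls kept within 96.4 to 112 counts, below all saline-treated controls, and PS groups were apart as well, while AS groups overlapped. Changes were -0.94 ± 0.16, adjusted p = 0.00056 in control, -0.67 ± 0.16, adjusted p = 0.016 in PS and -0.45 ± 0.16, adjusted p = 0.11 in AS mice, and -0.69 ± 0.09, adjusted p = 7.8e-06 on average, the lowest adjusted p of any member (limma).

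Car2 counts in controls were 2594, 2681, 2775 and 3318 with saline and 2143, 2176, 2579 and 3010.1 with DEX. For PS mice they were 2886, 2889, 3064 and 3103 with saline and 2309, 2380.1, 2382 and 2475 with DEX, and for AS mice 2943, 3046, 3096 and 3398 with saline and 2277, 2446, 2779.7 and 2843 with DEX. PS and AS groups were apart and called lower (-0.32 ± 0.09, adjusted p = 0.051 and -0.27 ± 0.09, adjusted p = 0.084), and the overlapping control groups were not called (-0.21 ± 0.09, adjusted p = 0.27, limma). The PS call ended without mouse 2, 6, 28 or 52 and the AS call without mouse 8, 14, 38, 40, 42 or 44, and both ended without the 4 libraries rich in olfactory bulb markers. Fa2h, which hydroxylates fatty acids for myelin galactolipids, fell in controls (-0.60 ± 0.15, adjusted p = 0.022, limma), while Ndrg1, which is mutated in a demyelinating neuropathy, rose there (0.38 ± 0.10, adjusted p = 0.022, limma), a call that ended without DEX mouse 101. Enpp2 rose in the mean of the phenotypes alone (0.17) and Trf was not called. Enpp2, Trf and Car2 are also strong genes of the choroid plexus. Of 7 choroid plexus markers only Aqp1 was measured, with 9.21 to 200 counts per library and the highest values in PS mouse 34 and control mouse 117, the libraries with most olfactory bulb markers.

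Both receptor genes fell on average. Gpr37, an orphan receptor that restrains oligodendrocyte maturation, stood at 574, 627, 699 and 819 with saline and 376, 393, 422 and 519.7 with DEX in controls. In PS mice values were 554, 560.2, 636 and 726 with saline and 431, 477, 480.2 and 602 with DEX, and in AS mice 505, 533, 584 and 609.6 with saline and 472, 509, 608 and 616 with DEX. Only control groups were apart and called (-0.67 ± 0.13, adjusted p = 0.0017), with -0.32 ± 0.13, adjusted p = 0.22 in PS and -0.02 ± 0.13, adjusted p = 0.96 in AS mice (limma). Lpar1, a receptor for the lysophosphatidic acid that autotaxin makes, had 305, 307, 349 and 349.8 with saline and 281, 298, 325 and 329 with DEX in controls. It had 313, 363, 396 and 403 with saline and 204, 258, 293 and 314 with DEX in PS and 337, 345, 351 and 382 with saline and 243, 296, 302 and 318 with DEX in AS mice. The call was in PS mice (-0.47 ± 0.11, adjusted p = 0.016), where groups overlapped through a saline value of 313 in mouse 68, and neither AS (-0.29 ± 0.11, adjusted p = 0.15), with groups apart, nor control mice (-0.09 ± 0.11, adjusted p = 0.81), with overlap, passed in limma.

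Among 3 measured transcription factors of mature cells, Myrf rose. The change of Myrf was 0.57 ± 0.15, adjusted p = 0.019 in AS mice, where groups did not overlap, 0.35 ± 0.15, adjusted p = 0.26 in PS and -0.08 ± 0.15, adjusted p = 0.88 in control mice (limma). The AS call ended without saline mouse 8. Sox10, the factor of the whole lineage, was called nowhere. Its counts were 537, 634, 679 and 782 with saline and 488, 489, 540.2 and 616 with DEX in controls, 469, 538, 546 and 551 with saline and 533, 550.0, 559 and 731 with DEX in PS and 516, 534, 547 and 652 with saline and 498, 594, 649 and 691 with DEX in AS mice, with overlap in each. The Sox10 values of 469 and 731 that stand apart within the PS groups are those of mice 2 and 34, both rich in olfactory bulb markers. Nkx6-2 was not called, with estimates of -0.13, 0.54 and 0.51.

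Of the 6 precursor members, 3 were called in controls and 0 in PS or AS mice, with 6.49%, 5.36% and 8.77% of all genes called. With 6 genes, 0 calls lie close to such shares, and 0 of the 6 were called for an interaction. Gpr17, a receptor of committed precursors, had 974, 993, 1019 and 1207 with saline and 1200.1, 1255, 1315 and 1499 with DEX in controls. In PS mice it had 815, 897, 904 and 924 with saline and 966, 996, 1054 and 1072 with DEX, and in AS mice 749, 1021, 1023 and 1029 with saline and 946, 1081, 1285 and 1329 with DEX. DEX groups were above saline groups without overlap in PS mice alone, yet the call fell to controls (0.33 ± 0.11, adjusted p = 0.086) and to the mean (0.27 ± 0.06, adjusted p = 0.0032), with 0.21 ± 0.11, adjusted p = 0.41 in PS and 0.28 ± 0.11, adjusted p = 0.14 in AS mice (limma). Pdgfra counts were 1139, 1324, 1439 and 1468 with saline and 1638, 1687, 1717 and 1877 with DEX in controls, and the groups did not overlap. They were 1379, 1385, 1488 and 1495 with saline and 1214, 1433, 1522 and 1607 with DEX in PS and 1244, 1436, 1489 and 1545 with saline and 1154, 1475, 1663 and 1901 with DEX in AS mice, with overlap. Its rise was called in controls (0.37 ± 0.11, adjusted p = 0.068) but not in PS (0.00 ± 0.11, adjusted p = 1) or AS mice (0.10 ± 0.11, adjusted p = 0.74), nor on average (0.16 ± 0.07, adjusted p = 0.15, limma). Olig2, a basic helix-loop-helix factor that specifies the lineage, had 407, 500.4, 519 and 536 with saline and 379, 395, 396 and 428 with DEX in controls. PS mice had 427, 455, 482 and 508 with saline and 370.3, 408, 409 and 446 with DEX and AS mice 425, 429, 457 and 514 with saline and 390.4, 392, 409 and 434 with DEX. The groups overlapped in every phenotype, and Olig2 was called lower in controls (-0.29 ± 0.09, adjusted p = 0.06) and on average (-0.22 ± 0.05, adjusted p = 0.0041, limma). All 3 control calls of precursor genes ended without mouse 106, 108, 117 or 122, that of Pdgfra also without 101, that of Olig2 without 101 or 107 and that of Gpr17 without 68, 109 or 112. Cspg4, Lhfpl3 and Olig1 were called in no comparison.

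In controls, the count of 13 called members fell to 7 without saline mouse 117, to 7 without DEX mouse 122 and to 7 without the 4 libraries rich in olfactory bulb markers. The shares of all genes called fell too, from 6.49% to 5.29%, 4.85% and 5.5%. Opalin, Aspa, Tmem88b, Gpr37, Fa2h, Pllp and Ndrg1 kept their calls in each of these. In PS mice 5 became 3 without the 4 libraries (Pllp, Aspa and Hapln2), and in AS mice 7 members were called again, with Mbp in and Car2 out. In the mean of the phenotypes, Gjc3 came in and Enpp2 and Sirt2 went out. The shares of all genes called without the 4 libraries are not given here for PS, AS or the mean. Whether these counts changed more than those over all genes was not tested.

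Whether the response to DEX itself depended on the phenotype was tested as an interaction. No member was called for PS minus control, AS minus control or AS minus PS (0 of 35 each, limma), with 0%, 0.348% and 0% of all genes called. edgeR also called 0 members in each, and DESeq2 called 0, 11 and 0, with 3.12% of all genes called by DESeq2 for AS minus control. For AS minus control, 19 members had an unadjusted p under 0.05 (limma), all mature, and the lowest adjusted p was 0.11. Of all 14074 genes, 1902 had an unadjusted p under 0.05 there. The median of that difference over the mature members was 0.57, with estimates above 0 for 26 of 29. Mag (0.90 ± 0.23, adjusted p = 0.11), Tmem88b (0.78 ± 0.20, adjusted p = 0.11) and Mobp (1.0 ± 0.26, adjusted p = 0.11) had the lowest p in limma. Instead of 0, 14 members were called when mouse 44 (AS, saline) was left out and 13 without mouse 112 (control, DEX), all but Ndrg1 (without mouse 112) with a higher response in AS mice. In these settings the share of all genes called rose as well, from 0.348% to 4.87% without mouse 44 and to 4.72% without mouse 112. Without mouse 72 (AS, DEX) 5 were called (0.838% of all genes), without mouse 14 (AS, saline) or 56 (PS, DEX) 4 each (1.12% each), and without mouse 34 (PS, DEX) 3 (1.22%). The count was 0 without the 4 libraries rich in olfactory bulb markers (0.583% of all genes).

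Beside these estimates stands the shared level of the mature genes, which ran from 0.17 (mean score of saline controls) to -0.15 in DEX-treated controls and from -0.10 to 0.09 in AS mice. Markers of endothelial cells had estimates of the opposite sign in that contrast, with a median of -0.89 and 0 of 12 called. Their sum (12 of 12 measured) ran from 8249 to 12189 normalized counts in DEX-treated controls and from 5017 to 7752 in DEX-treated AS mice, against 7509 to 9976 and 6778 to 10831 with saline. Of the 12, 5 were called lower with DEX in AS mice, 1 in PS mice and 0 in controls, with Tie1 and Tek, receptors of the vessel wall, at -1.10 and -1.25 in AS mice. Of 10 pericyte and smooth muscle markers, 5 were called lower in AS mice, with Notch3 at -0.99. Their part in the myelin results was not tested.

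With DEX in both groups, 0 of 35 members differed between PS and control or between AS and control mice (limma), with 0.199% and 0.867% of all genes called. edgeR called 0 and DESeq2 2 in each, with 1.6% and 2.96% of all genes called by DESeq2. Without the 4 libraries rich in olfactory bulb markers limma called 0 in each. Without mouse 112 (control, DEX) limma called 1 for PS and 3 for AS (1.8% and 2.86% of all genes), without mouse 44 (AS, saline) 1 each (0.909% and 2.31%), and without mouse 8 (AS, saline) 1 for AS (1.07%). At an unadjusted p under 0.05 (limma) there were 8 and 11 members, and 1975 and 1891 of all 14074 genes. Medians of the mature members were 0.17 and 0.29 on the log2 scale. These comparisons and the DEX responses of controls share the DEX-treated controls.

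To describe how the members changed with respect to each other, the level of each gene was also expressed relative to the rest of the mature set, as its log2(normalized count + 1) minus the mature score of the other mature members in the same library. On normalized counts, 0 of 35 members had DEX and saline groups apart in all 3 phenotypes (1.23% of all genes upwards, 0.433% downwards). On relative levels, 3 had. The DEX minus saline difference of Aspa was -0.65, -0.70 and -0.67 (log2, control, PS and AS), that of Tmem88b -0.47, -0.33 and -0.19, and that of Mal 0.53, 0.36 and 0.44. Of all genes, 0.0426% were apart downwards and 0.362% upwards in all 3 phenotypes on this scale. Subtracting the mature score takes shared variation out of the members but adds it to genes that do not follow them. These shares are therefore not a like-for-like background for the members. The relative level of Mal was 10.1 to 10.4 in the 12 saline libraries and 10.6 to 10.9 in the 12 DEX libraries, with no overlap across phenotypes. That of Aspa was 7.22 to 7.85 with saline and 6.66 to 7.07 with DEX, again with no overlap.

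For Opalin the differences were -1.02, -0.69 and -0.66 on the relative scale, with the saline-treated AS mouse 8 at 6.84 inside the range of 6.39 to 6.92 of DEX-treated AS mice. Hapln2 was higher by 0.30, 0.92 and 0.85, and Mobp by 0.28, 0.55 and 0.79, with overlap in controls for both. On this scale the share of all genes apart was 18.5% upwards and 0.256% downwards in controls, 2.28% and 2.51% in PS and 0.554% and 5.85% in AS mice. The same limit holds for these shares, since the mature score itself differed between the groups. Mbp differed by 0.03 in controls, 0.31 in PS and 0.31 in AS mice. When the level of the other mature members entered the limma model as a covariate, a choice made after the data had been seen, 8 members were called for DEX in controls, 15 in PS, 13 in AS and 27 on average, with 4.11%, 6.74%, 6.95% and 17.6% of all genes called. This covariate takes out variation that the mature members share, which favours calls among them. The shares of all genes, from a fit with the full mature score, are therefore not a like-for-like background for these counts. In controls the covariate ended 8 of the 13 calls, those of Pllp (adjusted p = 0.19), Fa2h (0.20), Olig2 (0.22), Ermn (0.32), Ppp1r14a (0.34), Gpr17 (0.48), Pdgfra (0.48) and Mag (0.55, limma). Estimates there shrank from -0.86 to -0.32 for Ermn, from -0.51 to -0.11 for Mag, from -0.42 to -0.22 for Pllp and from -1.30 to -0.77 for Opalin, which kept its call. No member was called for an interaction in that model, where the median AS minus control difference of the mature members was -0.02. The covariate is made of these same members and takes up the difference they share, so this median was fixed largely by construction. For stress, 1 member was called, Gpr17 in PS against control with saline, with 3.26% of all genes.

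**Figure D5:**
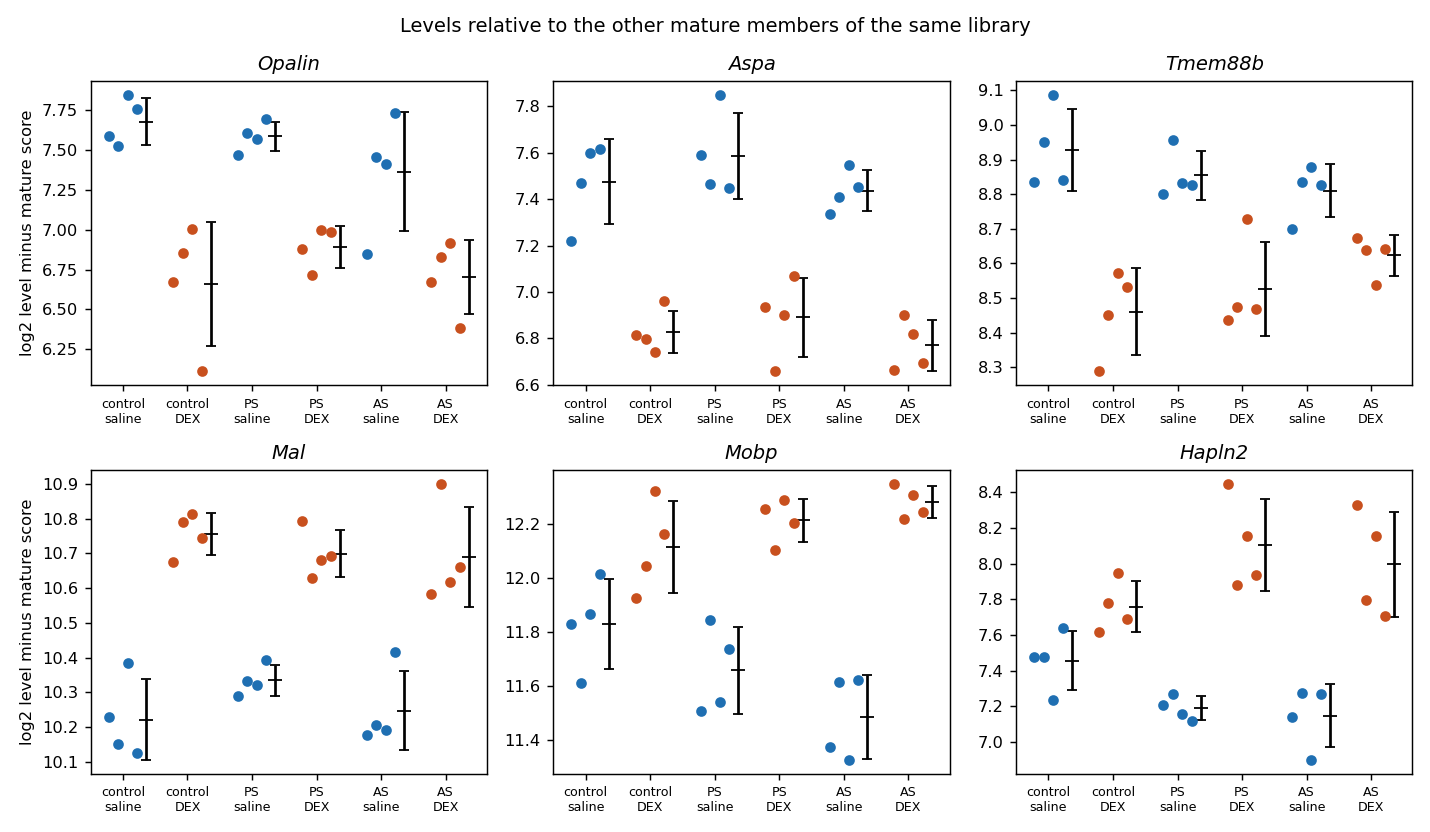
Level of Opalin, Aspa, Tmem88b, Mal, Mobp and Hapln2 relative to the other mature members of the same library (y axis, log2(normalized count + 1) minus mature score) by group; blue points are saline and orange points DEX libraries, and bars give the mean ± SD of 4 mice. For Aspa and Mal all 12 saline points are apart from all 12 DEX points; the axes do not start at 0.

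The promoters of the members that moved most were read for short motifs. RefSeq promoter windows on GRCm38.p6, from 250 bases before to 50 after a start site, were held for 23 of the 35 members (28 windows). The letters of the SOX motif (ACAAAG, either strand) stood in 8 of 28 member windows, of Cnp, Lpar1, Mag, Mobp, Opalin and Tspan2, and in 18.7% of all 32851 windows. An E-box bound by many helix-loop-helix factors (CAGCTG, which reads the same on both strands) stood in 4 of 28, of Aspa, Hapln2, Lhfpl3 and Opalin, and in 16.3% of all. The single-receptor site of the glucocorticoid response element (AGAACA, either strand) stood in 1 of 28, of Tspan2, and in 19.0% of all. No motif holds the letters of another. Of the 6 members with the lowest adjusted p in the mean response, 3 in each direction, Mal and Pllp held none of them. The windows of the other four are printed 5' to 3' on the strand of the gene in lower case, with motif letters in capitals, since 2 belong to genes that fell (Opalin, Aspa) and 2 to genes that rose (Mobp, Hapln2). They lie at chr19:41077064-41077363 (Opalin, minus strand), chr11:73324588-73324887 (Aspa, minus strand), chr9:120149492-120149791 (Mobp, plus strand) and chr3:88027462-88027761 (Hapln2, minus strand).
Opalin: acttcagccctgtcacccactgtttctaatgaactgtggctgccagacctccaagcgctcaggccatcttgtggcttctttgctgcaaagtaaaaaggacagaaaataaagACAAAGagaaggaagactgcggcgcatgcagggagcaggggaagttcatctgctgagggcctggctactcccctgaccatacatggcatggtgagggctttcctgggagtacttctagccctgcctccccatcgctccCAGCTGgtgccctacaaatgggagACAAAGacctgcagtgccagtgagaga
Aspa: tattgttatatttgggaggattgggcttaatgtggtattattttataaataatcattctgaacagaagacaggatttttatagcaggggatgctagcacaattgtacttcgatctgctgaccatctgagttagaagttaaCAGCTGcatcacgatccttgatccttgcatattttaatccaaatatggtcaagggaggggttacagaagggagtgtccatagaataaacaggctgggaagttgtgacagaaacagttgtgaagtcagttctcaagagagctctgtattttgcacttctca
Mobp: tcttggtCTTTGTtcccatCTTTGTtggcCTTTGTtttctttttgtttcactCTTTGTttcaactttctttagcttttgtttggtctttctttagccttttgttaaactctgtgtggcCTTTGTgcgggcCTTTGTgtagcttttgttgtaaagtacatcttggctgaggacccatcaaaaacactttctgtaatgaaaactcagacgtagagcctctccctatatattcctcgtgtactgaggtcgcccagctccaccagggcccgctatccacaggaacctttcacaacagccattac
Hapln2: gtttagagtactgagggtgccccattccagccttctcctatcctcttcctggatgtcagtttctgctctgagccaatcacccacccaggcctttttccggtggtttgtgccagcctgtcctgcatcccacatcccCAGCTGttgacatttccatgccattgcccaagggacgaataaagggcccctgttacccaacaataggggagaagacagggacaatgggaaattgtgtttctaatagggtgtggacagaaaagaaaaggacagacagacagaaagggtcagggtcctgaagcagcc
In the Opalin window the capitals mark 2 SOX motifs and 1 E-box, in the Aspa and Hapln2 windows 1 E-box each, and in the Mobp window 6 SOX motifs on the opposite strand (CTTTGT). A match of letters describes the window only.

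Of 40 further myelin and oligodendrocyte genes that are not members, 38 were measured, and DEX called 10 in controls (3 up, 7 down), 5 in PS (0 up, 5 down) and 6 in AS mice (3 up, 3 down). The adhesion molecule gene Mcam was among those that fell in controls (-0.75 ± 0.17, adjusted p = 0.0069, limma). Tmem98, whose product binds Myrf, led in PS mice (-0.75 ± 0.15, adjusted p = 0.0025), and the peptidylarginine deiminase gene Padi2, which citrullinates myelin basic protein, in AS mice (-0.78 ± 0.12, adjusted p = 0.000195, limma). Mcam is also expressed in vessel walls. Under stress without DEX, 1 of the 38 was called, Trp53inp2 in PS mice (-0.26 ± 0.05, adjusted p = 0.013), against 1.51% of all genes. For the interaction of AS and control, Plekhh1 was called (0.86 ± 0.18, adjusted p = 0.074).

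Of 30 further precursor and newly formed oligodendrocyte genes 26 were measured. DEX called 4 in controls (2 up, 2 down), 3 in PS (2 up, 1 down) and 4 in AS mice (2 up, 2 down). The sialidase gene Neu4 rose in controls (0.66 ± 0.09, adjusted p = 3e-05) and PS mice (0.57 ± 0.09, adjusted p = 0.00021), and the cyclin gene Ccnd1 fell in PS (-0.50 ± 0.08, adjusted p = 0.00026) and AS mice (-0.42 ± 0.08, adjusted p = 0.0015, limma). Of 17 measured axonal, nodal and paranodal partner genes of myelin, DEX called 2 in controls, both lower (Cntn2 at -0.38 and Epb41l3 at -0.19), 0 in PS mice and 3 in AS mice, all higher (Kcna2, a channel beside the paranode, at 0.34 and Cntnap2 at 0.27). Cholesterol synthesis is the pathway that feeds myelin growth, and 19 of its listed genes were measured. DEX called 3 in controls (1 up, 2 down), 2 in PS (2 up, 0 down) and 1 in AS mice (1 up, 0 down). The squalene synthase gene Fdft1 rose each time (0.41, 0.46 and 0.43), whereas Srebf2 fell in controls (-0.24 ± 0.07, adjusted p = 0.044, limma). The median log2 fold change of the 19 genes was -0.01 in control, 0.02 in PS and -0.02 in AS mice.

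Of 12 microglia markers, 3 were called with DEX in controls, 5 in PS and 5 in AS mice, led by P2ry12 (-0.42, -0.69 and -0.51), and of 12 astrocyte markers 3, 4 and 4, led by Fgfr3 in controls and PS mice (0.53 and 0.41) and by Aqp4 in AS mice (-0.49). Of 8 upper layer markers 1, 0 and 0 were called and of 7 layer 6 markers 1, 0 and 1, and of the measured olfactory bulb, blood and choroid plexus markers 0. Of the markers of pyramidal (10 measured) and GABAergic neurons (10 measured), 1 and 1 were called in controls, 0 and 0 in PS and 2 and 2 in AS mice. Striatal markers (7 measured) summed to 6403 to 7683 with saline and 7102 to 9528 with DEX. Summed markers of leptomeningeal fibroblasts (8 measured) ran from 2884 to 6586 with saline and from 1992 to 6055 with DEX, and those of blood (5 measured) from 1155 to 3140 and from 1123 to 4386. The part of these cell types and tissues in the responses of the members was not tested.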

How the data were processed

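Libraries were poly(A)-selected, strand-specific and paired-end. Per the labels and the study's methods, the authors trimmed reads with fastp 0.20.1, aligned them with HISAT2 2.2.1 to mm10, counted genes with featureCounts (Subread 2.0) and divided counts by DESeq2 1.36.0 size factors. The strand setting of the counting is not given in the sources used here. The deposited normalized counts (a signal, 1 scale per library) gave whole reads for 100% of values within 0.01 read. Deposited tables of the authors' own comparisons hold log2 fold changes and p-values, which were not used.

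The test was limma 3.58.1 (R 4.3.3, trended variance) on log2(normalized count + 1), with 1 mean per group over all 24 libraries and Benjamini-Hochberg adjustment over 14074 genes in each of 12 comparisons. Genes were called at an adjusted p under 0.1. No filter on low values was added. A fold change is on the log2(value + 1) scale and understates changes of low genes. Replicates are separate mice. Counting precision followed depth, 21121869 to 59439645 reads on genes, and intervals for it were not needed beside the spread between mice.

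Alternatives were a pseudocount of 8, a mean of at least 100, at least 10 reads in each library, quantile normalization, only the groups compared, library size as covariate, edgeR 4.0.16 and DESeq2 1.42.0 on recovered reads, and leaving out each library. A covariate for the other mature members, and leaving out libraries above 1000 counts of olfactory bulb markers, were chosen after seeing the data. Scripts were tested on simulated data.

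Per-library values are printed for the 12 members with the lowest adjusted p in any comparison and for Mbp, Mog, Cnp, Sox10, Pdgfra and Gpr17, and from other gene lists the 2 genes with the lowest p were eligible to be named. The members and lists were chosen with earlier results of these data known.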

Additional observations from a re-analysis of the deposited data

Results flagged for a closer look

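In 114 sets of 4 mice examined, 10 held a mouse far from the other 3 by Dixon's 95% criterion, which chance meets in about 1 of 20 sets. Saline-treated control mouse 117 accounted for 4 of them. Its mature score was 0.49 (0.01 to 0.08 in the others), its Mog count 535 (312 to 338), its Cnp count 3385 (2578 to 2679) and its Pllp count 731 (573 to 598). It also had the highest sum of olfactory bulb markers, 4785 counts. DEX-treated control mouse 112 stood high for Mbp, with 15476 counts against 11707 to 11884, and for Mobp, with 5294 against 3437 to 3720.0.

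Sox10 was low in saline-treated PS mouse 2 (469 counts, others 538 to 551) and high in DEX-treated PS mouse 34 (731, others 533 to 559). These libraries had 1677 and 3782 counts of olfactory bulb markers. Cnp was low in DEX-treated PS mouse 56, with 2370.0 counts against 2792 to 2875. Gpr17 was low in saline-treated AS mouse 44, with 749 counts against 1021 to 1029, the library with the highest mature score of its group (0.18). The cause of these deviations was not tested.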

How the results depend on the processing

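Of 42 calls of a member in a comparison, 38 passed in each of the 8 planned settings that keep all libraries, 30 without each single library and 29 in both. None of these 42 called estimates changed sign in any setting, whereas the median of the mature or precursor members did so in 46 of 816 pairs of a comparison and a setting. With only the groups compared in the model, 9 members were called for DEX in PS mice (5.74% of all genes), and the control call of Olig2 and the AS calls of Pllp and Car2 ended. Library size as covariate also ended the AS call of Car2, and quantile normalization the mean call of Sirt2. DESeq2 called 12 members for DEX in AS mice, 11 for the AS minus control interaction, 2 for PS against control with DEX and 2 for AS against control with DEX. Of all genes it called 11.5%, 3.12%, 1.6% and 2.96% in these comparisons. With the level of the other mature members as covariate, 1 member was called for PS against control with saline (3.26% of all genes). For DEX in control, PS, AS and the mean, 8, 15, 13 and 27 were called (4.11%, 6.74%, 6.95% and 17.6% of all genes). These shares are not a like-for-like background, since the covariate takes out variation that the mature members share. In that setting the median of the mature members shifted by more than the spread between replicates in 6 comparisons, to -0.02 for the AS minus control interaction. The covariate is built from these same members, so this shift follows largely from its construction. Without the 4 libraries rich in olfactory bulb markers, DEX called 7 in controls and 3 in PS mice, with the share of all genes given above for controls only. Leaving out each library gave 7 to 14 members for DEX in controls, 4 to 7 in PS, 5 to 10 in AS and 17 to 19 in the mean, 0 to 14 for the AS minus control interaction, 0 to 1 for PS against control with DEX and 0 to 3 for AS against control with DEX. Shares of all genes called changed as well, such as from 0.348% to 4.72% for the AS minus control interaction without mouse 112. Apart from the construction of that covariate, the causes of these changes were not tested. No paired analysis was possible because mouse numbers do not recur between groups. With 4 mice per group, standard errors of the mature members reached 0.25 on the log2 scale in the pairwise comparisons. Differences up to that size were not detectable for the noisier genes. Larger ones could go uncalled as well, such as that of Opalin with DEX in PS mice.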
